A study of Mus musculus with 12 samples.

Results

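Transcripts of the vacuolar ATPase, the proton pump that acidifies lysosomes and endosomes, were followed through 2D and 3D culture of mouse mesenchymal stem cells. Members were chosen by gene ID as a list of 9 out of 56748 gene IDs measured. They were Atp6v0d2 (ENSMUSG00000028238), Atp6v0d1 (ENSMUSG00000013160), Atp6v0c (ENSMUSG00000024121), Atp6v1a (ENSMUSG00000052459), Atp6v1b2 (ENSMUSG00000006273), Atp6v1c1 (ENSMUSG00000022295), Atp6v1d (ENSMUSG00000021114), Atp6v1h (ENSMUSG00000033793) and Atp6ap1 (ENSMUSG00000019087). The list was drawn up with results of these libraries known: Atp6v0d2 had been singled out by its level in 3D against 2D at 24 h. Values that rest on the 24 h spheroids are therefore a description. No p is given for a member there, and nothing is read from how many members passed a threshold. The values that led to the other 8 genes are not recorded in the sources used here. All 9 passed the expression filter, Atp6v0d2 through its 3 libraries of 24 h spheroids only.

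The cells were stromal cells isolated from mouse fat and grown in serum-containing DMEM. There were 4 groups of 3 libraries: 3D spheroids after 24 h of culture, attached 2D cells after 24 h, spheroids at 0 h and 2D cells at 0 h. The labels name no genetic change and no drug, and give no strain, age, passage or method of spheroid formation. Nothing states that replicates came from separate cultures. The p-values set the difference between groups against the spread among these libraries only, and that spread may be technical. Library totals ran from 10182590 to 17109609 expected counts. The labelled cell type could not be checked against marker genes, because the tables used here pair no other gene ID with a symbol. For the same reason the other genes of the pump were not analysed here. These are bulk samples, in which fewer cells of a type and less RNA per cell cannot be told apart.

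The pump has a membrane sector, V0, that carries protons, and a peripheral sector, V1, that hydrolyses ATP and turns the V0 rotor through a central stalk. Acid made by the pump activates lysosomal enzymes and drives sorting in endosomes, and nutrient sensing at the lysosome reads the state of the pump. Several subunits have alternative genes with tissue-restricted expression. Atp6v0d2 is the restricted form of the d subunit, which couples stalk and rotor, and in the mouse it is best known from osteoclasts and macrophages, whereas Atp6v0d1 is the widely expressed form.

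Promoter sequences were available for 5 of the 9 members, in windows of 300 bases around each annotated start (RefSeq, build GRCm38.p6; the submitters' processing notes name GRCm39, so the coordinates below are of the promoter windows on GRCm38.p6 and not of the files' build). The hexamer CACGTG, which is its own reverse complement and lies at the core of the motif bound by TFEB and related regulators of lysosomal genes, was searched. It occurred in the windows of Atp6v0d1 and Atp6v1a, each time with T before and A after it, and not in those of Atp6v0c, Atp6v1d or Atp6ap1. Among all 27025 genes with such windows, 8.09% held CACGTG and 1.12% held it with these flanks. A match of letters is a description and does not show a site in use. Both sequences are shown from 250 bases before to 10 bases after the start because they hold the hexamer, which is in capitals. It begins 3 bases before the start in Atp6v0d1, on the minus strand at chr8:105566055-105566314, and 131 bases before it in Atp6v1a, on the minus strand at chr16:44139250-44139509.
Atp6v0d1: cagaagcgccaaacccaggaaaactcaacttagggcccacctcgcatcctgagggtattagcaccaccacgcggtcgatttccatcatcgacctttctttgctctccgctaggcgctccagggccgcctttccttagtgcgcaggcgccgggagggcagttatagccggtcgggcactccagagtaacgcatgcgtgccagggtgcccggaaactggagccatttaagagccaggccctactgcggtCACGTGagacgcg
Atp6v1a: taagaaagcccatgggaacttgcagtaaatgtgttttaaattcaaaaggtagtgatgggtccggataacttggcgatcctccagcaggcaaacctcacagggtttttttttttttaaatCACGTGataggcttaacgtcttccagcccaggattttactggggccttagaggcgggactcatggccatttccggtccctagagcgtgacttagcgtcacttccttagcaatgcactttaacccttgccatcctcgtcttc

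Levels are given in TPM (transcript abundance scaled for gene length and library size), and differences as log2 fold changes ± SE from the count model. In 3D at 24 h all 9 genes stood above 2D at 24 h, and the members' summed level was 2986 ± 17.1 TPM in 24 h spheroids, 1809 ± 40.1 TPM in 24 h 2D cells, 1837 ± 6.23 TPM in 0 h spheroids and 1856 ± 87.0 TPM in 0 h 2D cells (SD, n = 3 each). The ranges of the other 3 groups lay below that of 24 h spheroids. Of these sums Atp6v0c, whose level is uncertain as given below, held 1319 TPM in 24 h spheroids and 896 TPM in 24 h 2D cells. At 0 h, 3D and 2D differed in both directions from gene to gene.

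**Figure D1:**
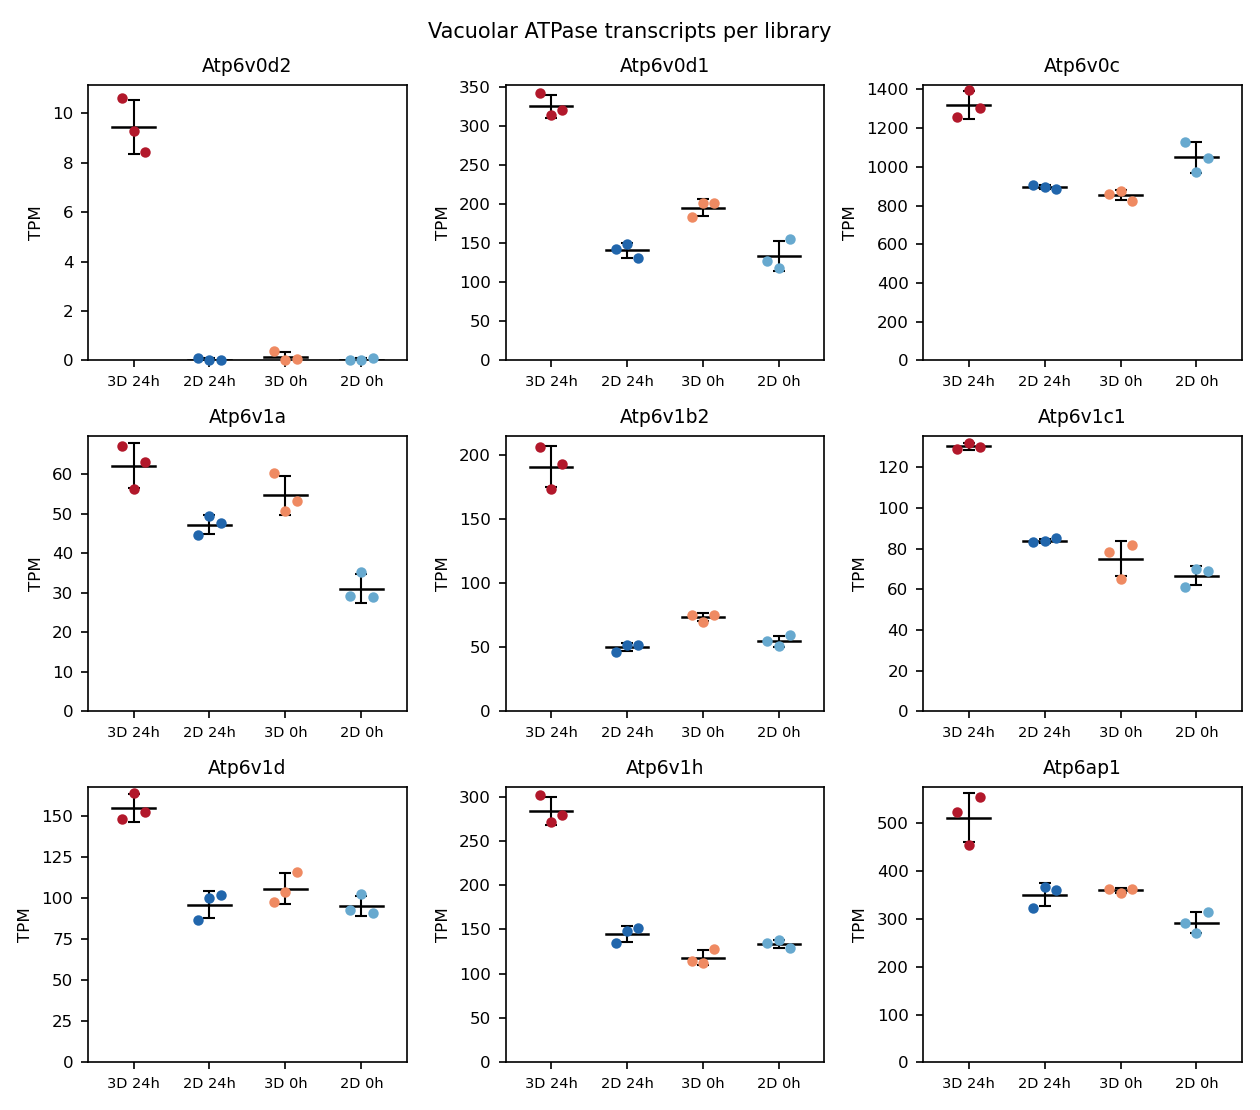
Level of each of the 9 genes in TPM (vertical axes, each from 0) in the 3 libraries of 24 h spheroids, 2D at 24 h, 3D at 0 h and 2D at 0 h. Points are libraries, and the bar with whiskers is the mean ± SD. In every panel the 3D 24 h libraries lie above the 2D 24 h libraries, from 9.45 ± 1.11 against 0.0367 ± 0.0635 TPM for Atp6v0d2 to 1319 ± 71.9 against 896 ± 9.66 TPM for Atp6v0c.

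Of the V0 sector, the alternative d subunit Atp6v0d2 was near 0 in all libraries but those of 24 h spheroids. It had 10.6, 9.27 and 8.44 TPM in 24 h spheroids (264, 174 and 165 counts), against 0.11, 0 and 0 TPM in 24 h 2D cells (2, 0 and 0 counts). At 0 h it had 0.37, 0 and 0.06 TPM in 3D (6, 0 and 1 counts) and 0, 0 and 0.09 TPM in 2D (0, 0 and 2 counts). The 24 h spheroid libraries lay apart from all others, which overlapped. From counts summed over each group, 3D at 24 h over 3D at 0 h was 69.7 (603 and 7 counts). Atp6v0d2 was singled out by its level in 24 h spheroids, so this ratio is a description. Of the 7 counts at 0 h, 6 came from replicate 1. For 3D over 2D at 0 h the ratio was 3.91 on 7 and 2 counts, with an exact 95% counting interval of 0.745 to 38.6. That interval covers counting error only. No test is given for Atp6v0d2 at 0 h, since it passed the filter through other libraries. Both 2D groups held 2 counts each, too few for a fold.

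Atp6v0d1 stood at 341, 314 and 320.1 TPM in 24 h spheroids and at 143, 149 and 131 TPM in 24 h 2D cells. At 0 h its level was 183, 202 and 201 TPM in spheroids, against 127, 118 and 155 TPM in 2D cells. This widely expressed d subunit was higher in every 3D library than in every 2D library at both times. At 24 h its 3D against 2D log2 fold change was 1.17 ± 0.10, while that for 0 h came to 0.39 ± 0.10 (edgeR quasi-likelihood test, Benjamini-Hochberg adjusted p = 0.0052), a call kept under all alternatives. Atp6v0d2 made up a small part of the d subunit transcripts even where it was highest. Its share of their summed TPM was 3.02%, 2.87% and 2.57% in 24 h spheroids, against 0.0771%, 0% and 0% in 24 h 2D cells. In 3D at 0 h the shares were 0.202%, 0% and 0.0298%, and in 0 h 2D cells 0%, 0% and 0.0580%. Counted in CPM (counts scaled to library size, not divided by length), the mean share in 24 h spheroids was 4.78% ± 0.420, in place of 2.82% ± 0.230 by TPM (SD, n = 3).

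Atp6v0c encodes the proteolipid of the proton-carrying ring and was the most abundant member per length in all 4 groups. It had 1256, 1397 and 1303 TPM in 24 h spheroids and 906, 897 and 886 TPM in 24 h 2D cells, a log2 fold change of 0.52 ± 0.12. At 0 h it had 860.4, 877 and 826 TPM in 3D and 1131, 972 and 1044 TPM in 2D. Its libraries thus lay on opposite sides at the times: 3D above 2D at 24 h and below 2D at 0 h. At 0 h it was lower in 3D, with a log2 fold change of -0.44 ± 0.12 (edgeR adjusted p = 0.0045). Its expected counts were not whole in any of the 12 libraries, as happens where reads are split among similar genes, so its level is uncertain. The counts of the other 8 members were whole throughout.

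Atp6ap1 encodes an accessory subunit that sits in V0 and helps assemble and guide the pump. It stood at 523, 455 and 555 TPM in 24 h spheroids, against 323, 368 and 361 TPM in 24 h 2D cells. Spheroids had 363, 353 and 363 TPM at 0 h, and 2D cells 292, 271 and 313 TPM. At both times the 3D libraries lay above the 2D libraries, by a log2 fold change of 0.50 ± 0.086 at 24 h and of 0.19 ± 0.086 at 0 h. The smaller difference at 0 h did not pass the test (edgeR adjusted p = 0.077). It passed under DESeq2 (adjusted p = 0.032), with upper-quartile scaling (0.0066), with library totals (0.0063) and with limma on log2(TPM + 1) (0.016).

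Of the V1 sector, A and B subunits alternate in the ring that binds ATP. The catalytic A subunit is encoded by Atp6v1a and a B subunit by Atp6v1b2, the widely expressed B form. Atp6v1b2 stood at 206, 173 and 193 TPM in 24 h spheroids and at 46.6, 52.0 and 52.0 TPM in 24 h 2D cells. Spheroids had 75.4, 69.6 and 74.9 TPM at 0 h, and 2D cells 54.6, 50.6 and 59.2 TPM. Its 3D libraries lay above its 2D libraries at both times, and its log2 fold change at 24 h, 1.87 ± 0.10, was next in size to that of Atp6v0d2 among the members. That value exceeded those of 96.9% of the 14338 genes tested. Among the members this share ran from 75.6% for Atp6v1a to 99.95% for Atp6v0d2. At 0 h it was higher in 3D by 0.27 ± 0.094 on the log2 scale (edgeR adjusted p = 0.025). This call ended without 2D 0 h replicate 2 (adjusted p = 0.096), 3D 0 h replicate 1 (0.067), 3D 0 h replicate 3 (0.063) or 3D 24 h replicate 3 (0.051), and with no expression filter (0.061).

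Atp6v1a stood at 67.3, 56.2 and 63.2 TPM in 24 h spheroids and at 44.6, 49.5 and 47.7 TPM in 24 h 2D cells. At 0 h its level was 60.3, 50.8 and 53.1 TPM in spheroids, against 29.1, 35.2 and 28.9 TPM in 2D cells. Every 3D library lay above every 2D library at both times. Its log2 fold change came to 0.45 ± 0.11 at 24 h and 0.63 ± 0.11 at 0 h (edgeR adjusted p = 0.00012), and the call at 0 h held under all alternatives. Among the 9 it alone had a smaller 3D against 2D difference at 24 h than at 0 h. The 24 h minus 0 h difference of its log2 fold changes was -0.19 ± 0.15. The ratio of Atp6v1b2 to Atp6v1a in TPM, looked at after their values had been seen, was 3.05, 3.09 and 3.05 in 24 h spheroids, against 1.05, 1.05 and 1.09 in 24 h 2D cells. At 0 h it was 1.25, 1.37 and 1.41 in 3D and 1.88, 1.44 and 2.05 in 2D. So in TPM the 3D libraries were higher in this ratio at 24 h and lower at 0 h, with no overlap. At 0 h the gap was small, 1.41 in 3D against 1.44 in 2D. In counts the 0 h groups overlapped. There 2D replicate 2 (1260 over 1432) lay between 3D replicate 2 (1608 over 1833) and 3D replicate 1 (1294 over 1445).

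**Figure D2:**
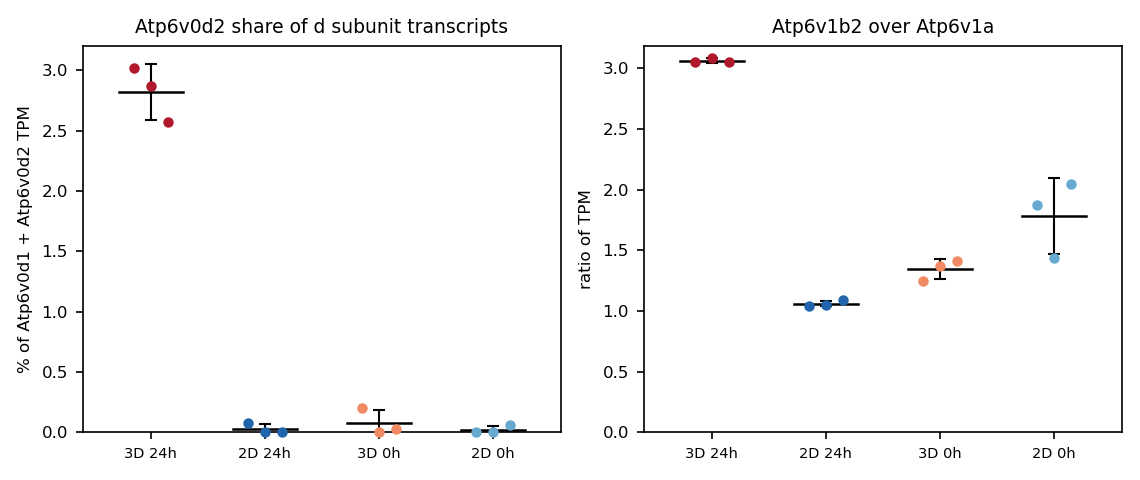
Left, share of Atp6v0d2 in the summed TPM of Atp6v0d1 and Atp6v0d2 (percent); right, ratio of Atp6v1b2 to Atp6v1a TPM, for 3D at 24 h, 2D at 24 h, 3D at 0 h and 2D at 0 h. Points are libraries and bars with whiskers are means ± SD (n = 3); the ratio was 3.07 ± 0.019, 1.06 ± 0.024, 1.34 ± 0.083 and 1.79 ± 0.31 in that order.

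Atp6v1h encodes the H subunit, which regulates the coupling of V1 to V0. It stood at 302, 271 and 279.6 TPM in 24 h spheroids, against 134, 148 and 151 TPM in 24 h 2D cells. At 0 h its level was 114, 113 and 128 TPM in spheroids, against 135, 138 and 129 TPM in 2D cells. The 3D libraries were above the 2D libraries at 24 h, by 0.98 ± 0.10 on the log2 scale, and below them at 0 h. At 0 h it was lower in 3D, with a log2 fold change of -0.31 ± 0.10 (edgeR adjusted p = 0.014). The call was not kept without 2D 0 h replicate 1 (adjusted p = 0.065), 3D 0 h replicate 1 (0.071) or 3D 0 h replicate 2 (0.078). It also ended with library totals (0.079), upper-quartile scaling (0.10), no expression filter (0.080) and limma on log2(TPM + 1) (0.12).

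Atp6v1d, a subunit of the central stalk, had 148, 164 and 153 TPM in 24 h spheroids and 86.4, 99.8 and 102 TPM in 24 h 2D cells. Spheroids had 97.5, 104 and 116 TPM at 0 h, and 2D cells 92.5, 102 and 91.0 TPM. Its groups were apart at 24 h, by 0.94 ± 0.11 on the log2 scale, and overlapped at 0 h, where the test did not call it (-0.053 ± 0.11, edgeR adjusted p = 0.73).

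Atp6v1c1 encodes the C subunit of the outer stalk, through which V1 is held to V0 or released. It had 129, 132 and 130.0 TPM in 24 h spheroids and 83.1, 83.8 and 85.1 TPM in 24 h 2D cells, a log2 fold change of 0.61 ± 0.10. Spheroids had 78.3, 65.3 and 81.8 TPM at 0 h, and 2D cells 61.2, 70.0 and 69.0 TPM. As for Atp6v1d, the cultures were apart at 24 h and overlapped at 0 h (0.050 ± 0.10, edgeR adjusted p = 0.71).

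At 0 h, of the 8 members without Atp6v0d2, 3 were called higher in 3D (Atp6v0d1, Atp6v1a and Atp6v1b2), where 23.1% of all genes were. Called lower were 2 (Atp6v0c and Atp6v1h), where 22.7% of all genes were. Upper-quartile scaling gave 4 members higher and 1 lower, beside 28.1% and 18.2% of all genes. Spheroid and 2D libraries did not overlap for 6 members, 4 with spheroids above (27.9% of all genes) and 2 with spheroids below (26.6%). The median log2 fold change of all 9 was 0.19, and 0.12 without Atp6v0d2, while that of all genes was 0.023. Without 3D 0 h replicate 1 the median of all 9 was 0.06. In that fit the value of Atp6v0d2, which rests on few counts, went from 1.82 to -0.26.

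At 24 h the same fit called all 9 members higher in 3D, where 19.6% of all genes were higher and 22.8% lower. For all 9, each spheroid library lay above each 2D library, as it did for 25.7% of genes, while 27.2% lay wholly below. Their median log2 fold change was 0.94, and 0.78 without Atp6v0d2, while that of all genes was -0.0018. The lowest was 0.45, for Atp6v1a. As this comparison had singled out Atp6v0d2, nothing is read from these counts. The 3D against 2D log2 fold change was higher at 24 h than at 0 h for 8 of the 9, and for 7014 of the 14338 genes tested. Atp6v0d2, singled out at 24 h, is among these 8. No test of this change between the times is given for the members, since it rests on the same 24 h libraries.

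**Figure D3:**
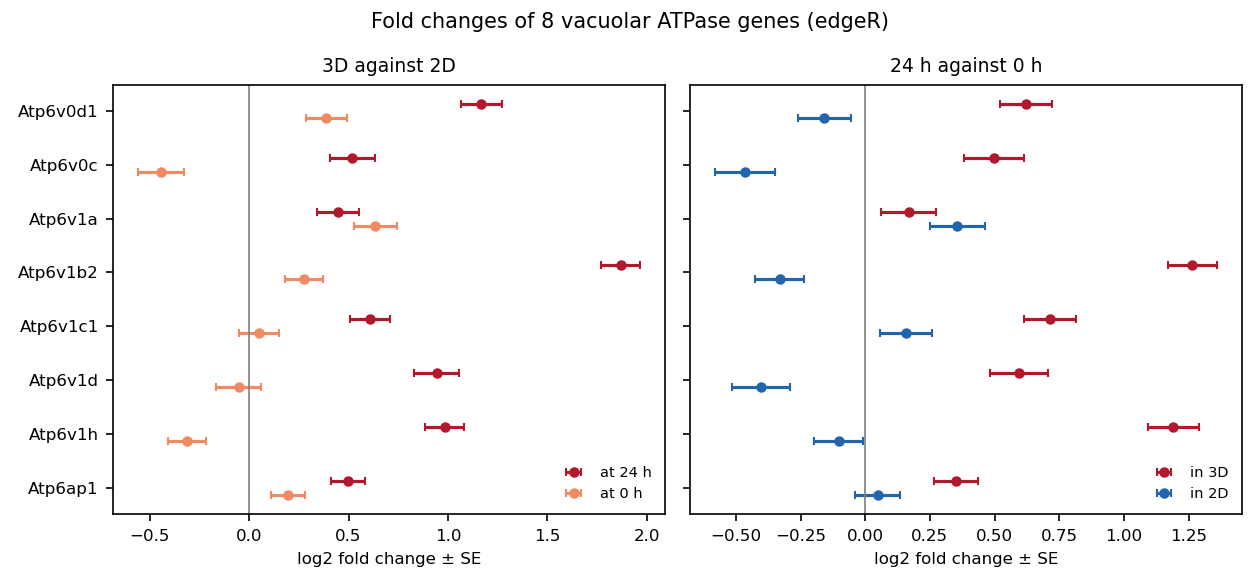
Log2 fold changes ± SE (horizontal axes) of the 8 members other than Atp6v0d2, which has too few counts in 3 groups for a stable fitted value. The left panel sets spheroids against 2D cells, at 24 h and at 0 h, and the right panel sets 24 h against 0 h, for spheroids and for 2D cells. At 24 h all 8 lie to the right of 0, from 0.45 to 1.87, while at 0 h they lie on both sides, from -0.44 to 0.63.

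Over 24 h in 3D all 9 stood higher at 24 h, again as a description of the 24 h spheroids. The fit called 8 of them higher, where 23.8% of all genes were called higher and 24.7% lower, and did not call Atp6v1a (0.17 ± 0.11). The members' median log2 fold change was 0.62, against -0.0043 for all genes. After Atp6v0d2, Atp6v1b2 (1.26 ± 0.095) and Atp6v1h (1.19 ± 0.10) had the highest values, and Atp6v1c1 (0.72 ± 0.10), Atp6v0d1 (0.62 ± 0.10), Atp6v1d (0.59 ± 0.11) and Atp6v0c (0.50 ± 0.12) lay between. Atp6ap1 was at 0.35 ± 0.086. In CPM the 24 h libraries lay above the 0 h libraries for all 9 members and for 29.8% of genes, and below them for 30.5% of genes. In TPM, those of Atp6v1a overlapped (the values are given above) and the other 8 did not.

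Over 24 h in 2D, members moved both ways. The 24 h 2D libraries also entered the comparison that singled out Atp6v0d2, and a choice by that comparison favours genes low in them. The adjusted p-values over 24 h in 2D, here and below, may therefore not be independent of how the list was made. Only Atp6v1a, the catalytic subunit, was called higher at 24 h (0.36 ± 0.11, edgeR adjusted p = 0.017), where 17.4% of all genes were. Called lower were Atp6v0c (-0.46 ± 0.12, edgeR adjusted p = 0.0053), Atp6v1d (-0.40 ± 0.11, edgeR adjusted p = 0.012) and Atp6v1b2 (-0.33 ± 0.095, edgeR adjusted p = 0.013), where 17.0% of all genes were. Atp6v0d1, Atp6v1c1, Atp6v1h and Atp6ap1 were not called. For Atp6v0d2, with 2 counts at each time, no test is given. In CPM, 24 h and 0 h libraries did not overlap for 2 members that were higher (21.7% of all genes) and 3 that were lower (21.4%). The median log2 fold change of all 9 was -0.10, and -0.13 without Atp6v0d2, against 0.025 for all genes. The call of Atp6v1a ended without 2D 0 h replicate 1 (adjusted p = 0.073) or 3 (0.058). That of Atp6v1d ended without 2D 24 h replicate 2 (0.072). Atp6v1b2 lost its call without 2D 0 h replicate 1 (0.051), 2D 0 h replicate 3 (0.053) or 2D 24 h replicate 2 (0.050).

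The directions in 2D depended on the scale. With limma on the deposited log2(TPM + 1) values, which called 20.2% of all genes higher and 8.77% lower, Atp6v1d (adjusted p = 0.96) and Atp6v1b2 (0.37) were not called, while Atp6v1c1 (0.023) and Atp6ap1 (0.044) were called higher. In TPM, Atp6v1d averaged 96.0 ± 8.30 in 24 h 2D cells and 95.3 ± 6.14 in 0 h 2D cells (SD, n = 3 each). Atp6v0c was lower at 24 h (adjusted p = 0.046) and Atp6v1a higher (adjusted p = 0.0023) on the TPM scale too.

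Per length, the order of the members was much the same in all groups, with Atp6v0c first, Atp6ap1 second, Atp6v1a next to last and Atp6v0d2 last. In 3D at 24 h the order between them was Atp6v0d1, Atp6v1h, Atp6v1b2, Atp6v1d and Atp6v1c1, and no neighbours overlapped. In 2D at 24 h it was Atp6v1h, Atp6v0d1, Atp6v1d, Atp6v1c1 and Atp6v1b2. There Atp6v1h and Atp6v0d1 overlapped, and so did Atp6v1b2 and Atp6v1a. Among 2D cells at 0 h the order was as in 24 h 2D cells, with Atp6v1h (134 ± 4.67 TPM) and Atp6v0d1 (134 ± 19.2 TPM) overlapping. In 3D at 0 h Atp6v0d1 came before Atp6v1h, Atp6v1h overlapped with Atp6v1d, and Atp6v1c1 overlapped with Atp6v1b2. Atp6v1b2 thus stood above Atp6v1d and Atp6v1c1 in 24 h spheroids and below both in the other groups, although in 0 h spheroids it was not apart from Atp6v1c1.

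The genes most like Atp6v0d2 were sought by Pearson correlation of log2 CPM over the 12 libraries, among 10389 genes with at least 5 CPM on average in 24 h spheroids. The tables used here give no symbols for them. ENSMUSG00000022425 came first (r = 0.955), with 13.3 ± 0.993 CPM in 24 h spheroids, against 1.30 ± 0.425 CPM in 24 h 2D cells (SD, n = 3 each). ENSMUSG00000003812 followed (r = 0.955), with 26.9 ± 3.38 CPM in 24 h spheroids, against 7.47 ± 2.42 CPM in 24 h 2D cells. At 0 h ENSMUSG00000022425 averaged 1.99 ± 0.644 CPM in spheroids, against 1.08 ± 0.583 CPM in 2D cells. For ENSMUSG00000003812 the 0 h means were 9.25 ± 1.05 CPM in spheroids and 6.32 ± 0.190 CPM in 2D cells. Unlike Atp6v0d2, both had more than 1 CPM on average in every group. These correlations describe the libraries, which share the gap between 3D at 24 h and the rest.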

How the data were processed

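Per the labels' protocols, RNA was prepared with SMART-seq v4 and sequenced from stranded TruSeq libraries. Per the submitters' processing notes, FastQC 0.11.9, STAR, RSEM and build GRCm39 were used; the annotation is not stated. Deposited by the authors were expected counts, in which reads matching several genes are split among them, and log2(TPM + 1) values, turned back to TPM here. Column names give day 0 and day 1, read as 0 h and 24 h.

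After rounding, counts went through edgeR 4.0.16 (R 4.3.3): expression filter (minimum count 10, which kept 14338 genes), TMM scaling, and a quasi-likelihood model of 4 group means over 12 libraries, with Benjamini-Hochberg adjustment over all genes and a threshold of 0.05. CPM are TMM-scaled. The steps were tested on simulated data. limma 3.58.1 and DESeq2 1.42.0 served as alternatives. No replicate pair agreed within sampling noise (lowest chi-square per degree of freedom 4.62).

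The members, gene lists and tests were chosen with earlier results of these data known. All 9 members are named, with the 2 genes most correlated with Atp6v0d2. Lists of other pump genes and of cell type markers could not be applied, since the IDs are not paired with symbols.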

Additional observations from a re-analysis of the deposited data

Results flagged for a closer look

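For Atp6v0c and Atp6v1h every spheroid library lay above every 2D library at 24 h and below every 2D library at 0 h. Of all genes, 25.7% lay wholly above at 24 h and 26.6% wholly below at 0 h. The share of genes that did both was not counted. The 24 h minus 0 h difference of the log2 fold changes was 0.96 for Atp6v0c and 1.29 for Atp6v1h. No test of this difference is given and it counts as not tested, since the list was drawn up with the 24 h values known. The expected counts of Atp6v0c were not whole, so its level is uncertain. For Atp6v1h at 0 h the highest spheroid library had 127.98 TPM and the lowest 2D library 128.67 TPM. Its call at 0 h ended under several alternatives, as given above.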

How the results depend on the processing

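The members' median log2 fold change for 3D against 2D at 24 h was 1.01 with upper-quartile scaling, 1.07 with library totals and 0.69 with limma at either pseudocount (1 or 0.1), and 0.89 to 1.05 without 1 library. Over 24 h in 3D it was 0.70 with library totals and 0.73 or 0.74 with limma. For the change of the culture difference it was 0.65 with limma at either pseudocount, and 0.86 to 1.08 without 1 library. At 0 h, 4 members were called higher in 3D and 1 lower with upper-quartile scaling, library totals and limma at either pseudocount, against 3 and 2 in the fit reported. With DESeq2 the counts were 4 and 2, beside 24.6% and 23.2% of all genes. With no filter they were 2 and 1, beside 14.0% and 12.2%. Without 1 library, 2 to 3 were higher and 1 to 2 lower, beside 19.3% to 23.8% and 18.1% to 23.8% of all genes. Upper-quartile scaling put the share of all genes called at 28.1% higher and 18.2% lower. The shares were 27.3% and 18.8% with library totals. With limma they were 25.4% and 15.5% at the pseudocount of 1, and 25.3% and 15.6% at 0.1. The median there was 0.31 with upper-quartile scaling, when that of all genes moved to 0.14, and 0.056 to 0.24 without 1 library. Atp6v1d turned to 0.065 with upper-quartile scaling, 0.047 with library totals and 0.15 with limma, and ran from -0.10 to 0.00035 without 1 library. Over 24 h in 2D, limma called 3 members higher and 1 lower at either pseudocount (20.2% and 8.77% of all genes at 1, 19.9% and 8.56% at 0.1), with a median of 0.082, or 0.083 at the pseudocount of 0.1 (all genes 0.17 and 0.21), and the signs of Atp6v0d1 (0.082 and 0.083), Atp6v1d (0.0083) and Atp6v1h (0.11) turned. Without 1 library 0 to 1 were called higher and 1 to 3 lower. In those fits 12.01% to 18.04% of all genes were called higher and 11.22% to 18.88% lower. Fitted values of Atp6v0d2 outside 24 h spheroids rest on 0 to 6 counts a library and ran from -0.26 to 4.43 for 3D against 2D at 0 h and from -2.63 to 2.73 over 24 h in 2D. Its share of d subunit transcripts in 24 h spheroids was 4.78% by CPM. The cause of these shifts was not tested.

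Same-numbered libraries did not deviate together (correlations of -0.18 to 0.041 over 18 pairs, and 0 of 12 libraries correlated best with their own number). With the replicate block, 3 members were called higher and 2 lower at 0 h, as without it, beside 21.6% and 21.1% of all genes. The members' median was 0.19, and no other count of members called changed.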
